A study of Danio rerio with 12 samples.

Results

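The response of control zebrafish larvae (Danio rerio) to poly I:C, a man-made double-stranded RNA polymer, was measured in 3 RNA-seq libraries of poly I:C-stimulated control larvae (A78, A79 and A80) set against 3 of unstimulated control larvae (A81, A82 and A83). These are 6 of the 12 libraries of the series, chosen by their group labels. The other 6 came from larvae carrying Tg(ifih1_mut), here ifih1mut, with poly I:C (A72, A73 and A74) and without it (A75, A76 and A77). Unless stated otherwise, they also entered the gene filter, the scaling and the estimate of the spread for the tests in control larvae. Their own poly I:C effect was compared with that of control larvae. The series compares the larvae as a model of Aicardi-Goutières syndrome, in which inherited mutations lead to excess interferon signalling. Each library came from the total RNA of 25 whole larvae, pooled 3 days after fertilization. The labels do not give the strain of the control larvae, the promoter of the transgene, the dose, route or duration of poly I:C, or whether the pools came from separate clutches, so that p-values reflect no more than the spread among these pools.

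Double-stranded RNA is a sign of virus infection. In the endosome it is bound by Toll-like receptor 3, which signals through the adaptor ticam1, and in the cytoplasm by the helicases MDA5 (ifih1) and RIG-I, which signal through the adaptor mavs. Both routes activate interferon regulatory factors, and the interferons made in turn act through JAK kinases and STAT factors to switch on interferon-stimulated genes, of which isg15 and stat1b are standard markers.

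Library totals lay between 32253177 and 33192488 counts with poly I:C, and were 100839015, 53403950 and 31876869 counts without it in A81, A82 and A83. Ribosomal RNA took 0.0430 to 0.0570% of the counts and mitochondrial genes 4.06 to 5.11%. Markers of the tissues expected in a larva were present in every library, 16 of 16. They ranged over the 6 libraries from 276 to 376 CPM (counts per 1e+06 of a library's TMM-adjusted total) for the neuronal gene elavl3, and from 605 to 901 CPM for the muscle gene ckma. The neutrophil gene mpx was at 20.2 to 29.7 CPM and lyz, also of neutrophils, at 0.181 to 1.62 CPM. The macrophage genes mpeg1.1 and mfap4 were at 0.556 to 1.15 CPM and 1.85 to 4.28 CPM. Libraries that hold the same place in the numbering of their groups varied together across genes, so that A78 pairs with A81, A79 with A82 and A80 with A83. These pairs are called sets 1, 2 and 3.

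Of 26508 genes tested, 0 were called (0.00%) at a Benjamini-Hochberg adjusted p under 0.05 in edgeR's quasi-likelihood test, and the adjusted p was 1 for every gene. At an unadjusted p under 0.05 there were 191 genes with higher values with poly I:C (0.721% of those tested) and 176 with lower values (0.664%), 367 in all (1.38%). Groups that did not overlap were found in 568 genes with higher values (2.14%) and 614 with lower values (2.32%). With the library set as a replicate block, edgeR again called 0 genes, and the genes at an unadjusted p under 0.05 numbered 494 higher (1.86%) and 560 lower (2.11%). DESeq2 called 0 genes without the block, where 413 had an unadjusted p under 0.05, and with the block it called 24 (0.0905%). No statement below that a gene had higher or lower values is therefore a call over all genes in edgeR, and a p that misses the threshold does not show that the values did not differ.

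The interferon-stimulated genes were only slightly higher on balance, and most of what they showed came from 1 of the 3 stimulated pools. Of 59 members tested, 39 had log2 fold changes above 0 (48.8% of all genes did), with a median of 0.12, against -0.00 over all genes. At an unadjusted p under 0.05, 6 were higher (cmpk2, helz2, rnf213b, stat1b, dhx58 and tap2a), against 0.721% of all genes, and 0 were lower. With the replicate block, 7 were higher at that level and 0 lower (1.86% and 2.11% of all genes). These 7 held isg15 and mxe but not tap2a. Groups did not overlap for 5, all higher (2.14% of all genes). The gene filter used all 12 libraries, and some of the 59 members passed it only with the ifih1mut libraries. Among these were cmpk2, tap2a, rsad2 and mxe, which reached the filter's minimum in too few of the 6 libraries of control larvae. The count of 6 thus includes cmpk2 and tap2a, the count of 5 cmpk2, and the count of 7 cmpk2 and mxe. Other such members may be among the 5. In a fit of the 6 libraries alone, 45 members passed the filter and 3 were higher at an unadjusted p under 0.05, with or without the block. The pairwise medians, on the log2(CPM + 0.5) scale, were 0.05 in set 1, -0.05 in set 2 and 0.32 in set 3. In set 3, 10 members were above 1 on that scale, against 1 in set 2 and 0 in set 1. The largest fitted change in the list was negative, -4.02 for ifit15 (unadjusted p = 0.0531 in edgeR). Its pairwise differences on that scale were only -0.13, -0.16 and 0.00. Of the other ifit genes, ifit8, ifit9, ifit10 and ifit14 had negative log2 fold changes, and ifit11, ifit12 and ifit16 positive ones.

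The transcription factor stat1b, which relays the interferon signal (ENSDARG00000076182, chromosome 9, 41218967 to 41247197 in the deposited coordinates, genome build not given in the sources used here), was at 0.711, 0.600 and 5.99 CPM in A78, A79 and A80, against 0.392, 0.573 and 0.756 CPM in A81, A82 and A83. The groups overlapped, and only A80 stood clear of the unstimulated pools. Its log2 fold change was 2.19 (SE 0.88, edgeR adjusted p = 1). The unadjusted p in edgeR was 0.0299 without the replicate block and 0.00478 with it. The RNA helicase dhx58, a regulator of MDA5 and RIG-I signalling, was at 0.927, 0.570 and 3.49 CPM in the same stimulated pools and 0.716, 0.459 and 0.567 CPM in the unstimulated ones. Here too the groups overlapped and A80 alone was high.

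The ubiquitin-like modifier isg15 (ENSDARG00000086374, chromosome 5, 20112032 to 20113284) was high in 2 stimulated pools, at 1.11, 3.30 and 3.28 CPM, against 0.611, 0.707 and 2.39 CPM in the unstimulated pools. Each stimulated pool was above the unstimulated pool of its own set, while the groups overlapped through A83. The log2 fold change was 1.21 (SE 0.61, edgeR adjusted p = 1). The unadjusted p in edgeR was 0.0723 without the replicate block and 0.00561 with it.

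The nucleotide kinase cmpk2 was at 0.185, 0.240 and 0.904 CPM with poly I:C, against 0.0955, 0.0765 and 0.158 CPM without it. These groups did not overlap, although the counts behind them were only 6, 8 and 30 against 10, 4 and 5. Its neighbour rsad2, the antiviral enzyme viperin, was at 0.247, 0.0600 and 1.81 CPM with poly I:C and 0.267, 0.210 and 0.189 CPM without it. Both A78 and A79 lay within or below the unstimulated range of rsad2, and without A80 its log2 fold change of 1.59 turned to -0.60. Neither cmpk2 nor rsad2 would pass the filter in the libraries of control larvae alone.

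The helicase gene helz2 was at 0.958, 0.540 and 1.32 CPM in stimulated pools and 0.401, 0.306 and 0.567 CPM in unstimulated pools, higher with poly I:C in each of the 3 sets. The ubiquitin ligase rnf213b was at 0.464, 0.330 and 1.15 CPM with poly I:C, against 0.220, 0.306 and 0.158 CPM without it, and its groups did not overlap. The peptide transporter tap2a, which loads MHC class I, rested on few reads, with counts of 9, 2 and 8 with poly I:C and 4, 4 and 2 without it. It passed the filter only with the ifih1mut libraries.

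Of the Mx GTPases, which block virus replication, mxa and mxe were again high in A80 alone. The level of mxa was 0.556, 0.420 and 1.42 CPM in stimulated pools and 0.497, 0.688 and 0.315 CPM in unstimulated pools, and that of mxe was 0.278, 0.0900 and 2.05 CPM against 0.277, 0.153 and 0.441 CPM. Without A80 the log2 fold change of mxa was -0.08 (0.63 with all libraries) and that of mxe -0.58 (1.55 with all libraries). Of these 2 genes, mxe passed the filter only with the ifih1mut libraries. Not every Mx gene followed this pattern: the pairwise differences of mxd were -0.08, -0.18 and 0.03 in sets 1, 2 and 3, and those of mxg were -0.08, 0.16 and 0.11, on the log2(CPM + 0.5) scale.

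**Figure D1:**
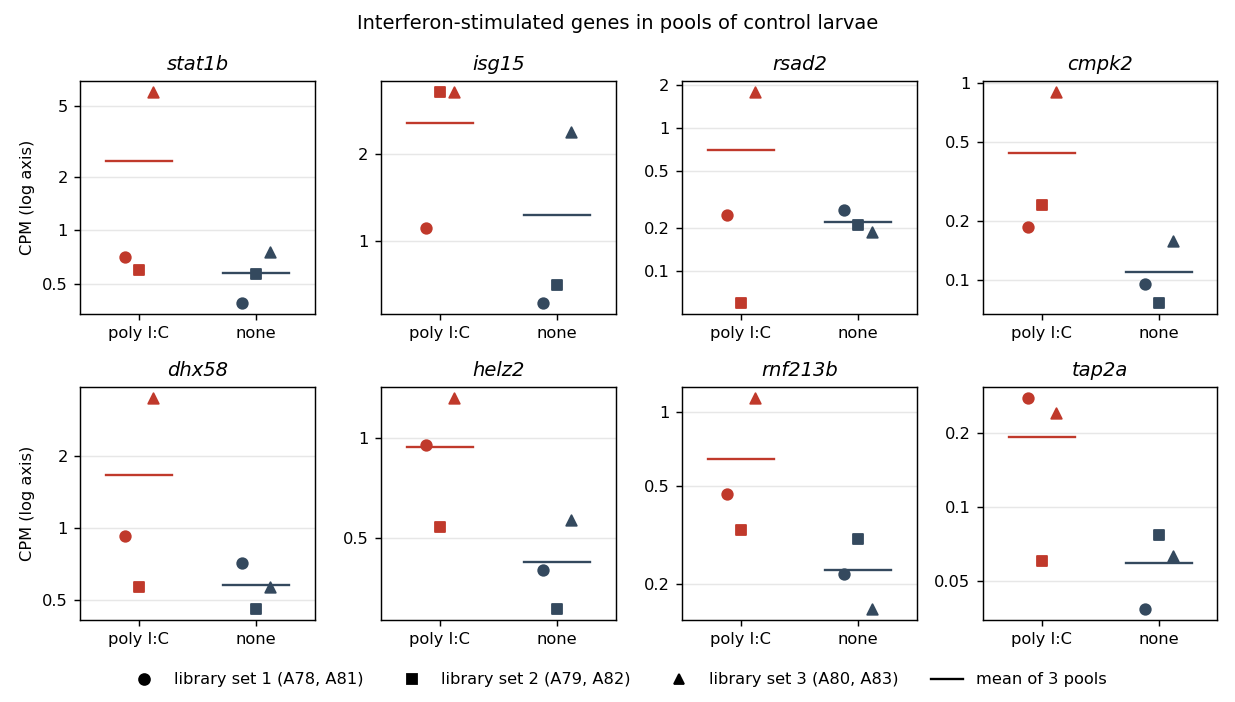
Level in CPM (log axis) of 8 interferon-stimulated genes in the 3 poly I:C-stimulated (red, left) and 3 unstimulated (dark, right) pools of control larvae; the marker shape gives the library set and the line the mean. In 6 of the 8 panels (all but isg15 and tap2a) the highest point is A80, for stat1b at 5.99 CPM against 0.392 to 0.756 CPM in the unstimulated pools.

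The count of 6 members higher at an unadjusted p under 0.05 was 0 without A80 (with 1 lower and a median of 0.02), 1 without A81, 1 without A82 and 1 without set 1. The medians in these last 3 fits were 0.34, 0.12 and 0.29. Without A83 the count was 4 (with 1 lower), without A78 and without set 2 it was 6, and without A79 it was 8, with medians of 0.09, 0.10, 0.24 and 0.24. The count was 3 without set 3 (with 1 lower), where the list's median was -0.08, and 3 in a fit of the 6 libraries alone. In that last fit 45 members passed the filter, with a median of 0.07.

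Upstream of these effectors, levels of ifih1, mavs and ticam1 were close in the 2 groups. The sensor ifih1 (MDA5) was at 2.26, 1.92 and 2.02 CPM with poly I:C, against 2.29, 2.73 and 1.99 CPM without it, so the groups overlapped. The adaptor mavs was at 29.8, 23.3 and 24.9 CPM in stimulated pools and 28, 24.3 and 20.9 CPM in unstimulated pools. The adaptor ticam1 was at 7.76, 7.38 and 7.23 CPM with poly I:C and 7.34, 8.26 and 6.21 CPM without it. Of 21 sensing genes tested, 12 had a positive log2 fold change, the median was 0.01, and 1 (dhx58) was higher at an unadjusted p under 0.05. Toll-like receptor 3 itself was not analysed here.

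The transcription factors that switch on interferon genes did not separate the groups either. The level of irf7 was 4.14, 5.82 and 5.18 CPM with poly I:C and 5.03, 5.45 and 5.01 CPM without it, a log2 fold change of -0.03 (SE 0.31, edgeR adjusted p = 1), and irf3 was at 1.51, 1.02 and 2.56 CPM against 1.22, 1.93 and 1.51 CPM. The unstimulated pools lay inside the range of the stimulated pools for both genes. The editor of double-stranded RNA adar was at 62.1, 54.4 and 62.6 CPM in stimulated pools, against 59.6, 56.5 and 66.2 CPM in unstimulated pools.

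Interferon transcripts were rare. The type I interferon ifnphi1 had 3, 9 and 20 counts with poly I:C and 11, 8 and 8 counts without it (log2 fold change 0.99, SE 0.77, edgeR adjusted p = 1). Scaled to library size its highest value was again in A80 (0.602 CPM), and it passed the filter only with the ifih1mut libraries. The interferon ifnphi3 had 6, 7 and 4 counts in stimulated pools and 22, 6 and 4 in unstimulated pools, and was too low to be tested. Of 17 interferons, receptor chains, JAK kinases and STATs tested, 15 had a positive log2 fold change with a median of 0.08, and stat1b alone was at an unadjusted p under 0.05. The second copy of the same factor, stat1a, was far more abundant, at 67.3, 53.6 and 53.7 CPM with poly I:C and 64.1, 47.6 and 45.5 CPM without it. The feedback inhibitor socs1a was at 2.84, 1.44 and 2.65 CPM with poly I:C, against 3.14, 2.31 and 3.88 CPM without it, and 13 of 19 inhibitors tested had a negative log2 fold change.

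Inflammatory genes showed no shared direction. Of 34 cytokines, chemokines and NF-kB targets tested, 14 had a positive and 20 a negative log2 fold change, the median was -0.11, and 0 were at an unadjusted p under 0.05 in edgeR or with the block. The cytokine il1b was at 2.91, 0.420 and 6.48 CPM with poly I:C and 10.1, 0.420 and 3.72 CPM without it, so that pools of 1 group differed more than the groups. The neutrophil-attracting chemokine cxcl8a was at 4.39, 3.18 and 4.55 CPM in stimulated pools and 7.93, 2.66 and 3.18 CPM in unstimulated pools. The cytokine tnfa had 0, 0 and 3 counts with poly I:C, against 20, 2 and 5 without it, and was not tested. Lists of neutrophil and macrophage markers had medians of 0.08 and -0.05.

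The response of control larvae was then set against that of ifih1mut larvae, with which it shares no library. In ifih1mut larvae edgeR called 181 genes higher (0.683%) and 2 lower (0.00754%) with poly I:C, and 34 of the 59 interferon-stimulated genes were among those called higher, with a median log2 fold change of 2.67. The test of the difference itself, the poly I:C effect in control minus that in ifih1mut larvae, called 41 genes, all lower (0.155%), and 79 with the replicate block. Of the interferon-stimulated genes 13 were called, all with the smaller effect in control larvae. Only 45 members passed the filter when it was run on the 6 libraries of control larvae. Some of the 59 thus passed only with the ifih1mut libraries, where most members were higher with poly I:C. The median of 2.67 includes them, and the counts of 34 and 13 may do so. The difference was -6.18 for isg15 (SE 0.85, edgeR adjusted p = 0.0247), -6.51 for dhx58 (SE 0.85, edgeR adjusted p = 0.0238) and -3.29 for irf7 (SE 0.44, edgeR adjusted p = 0.0247). For stat1b it was -6.44 but was not called (SE 1.25, edgeR adjusted p = 0.122).

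The set in which stimulated control larvae reached their highest stat1b level also held the highest level in stimulated ifih1mut larvae. With poly I:C, stat1b was at 167, 96.2 and 390 CPM in A72, A73 and A74 of the ifih1mut larvae, and A74 belongs to set 3 like A80. The level in A80 was thus far under the lowest of these. The count of 41 genes was 0 without any 1 of A75, A76, A77, A78, A79, A81 or A82, 0 without set 1 or set 2, 6 without A83, 15 without set 3 and 22 without A80.

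**Figure D2:**
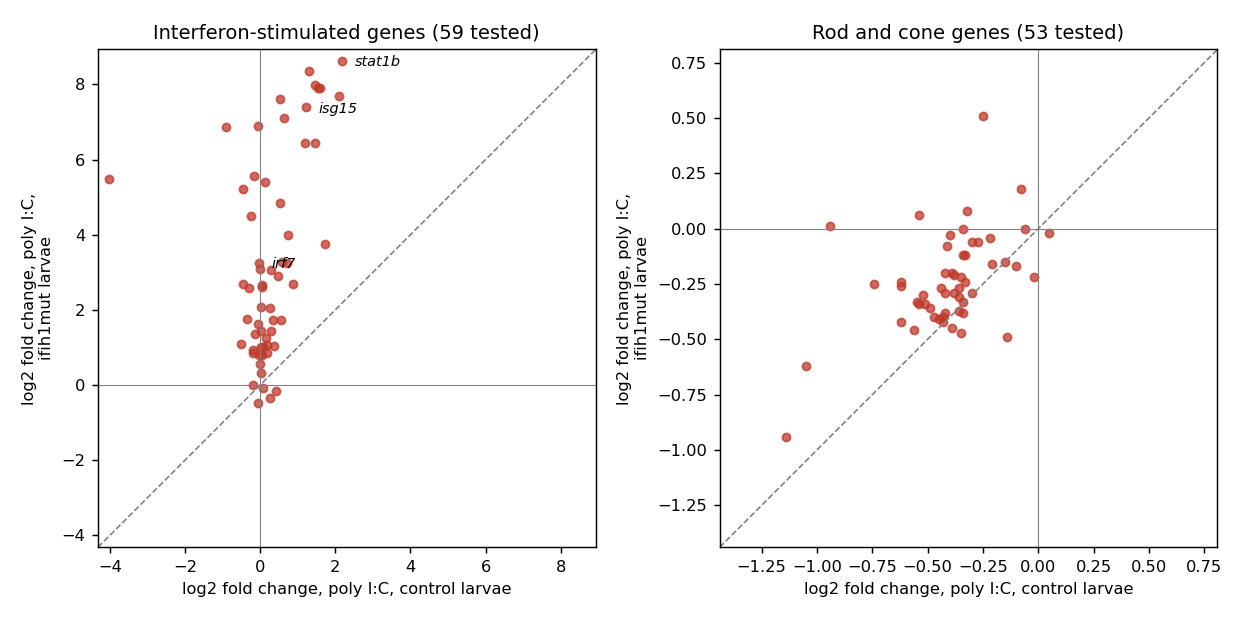
Log2 fold change with poly I:C in control larvae (horizontal axis) and in ifih1mut larvae (vertical axis) for the 59 interferon-stimulated genes (left) and the 53 rod and cone genes (right) tested; the dashed line marks equal effects. The interferon-stimulated genes stand along the vertical axis, with medians of 0.12 in control and 2.67 in ifih1mut larvae, while the photoreceptor genes have medians of -0.38 in control and -0.26 in ifih1mut larvae.

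The most uniform direction among the lists was in the photoreceptors, the light-sensing cells of the retina, whose genes had lower values with poly I:C. Of 34 cone genes tested, 34 had a negative log2 fold change (51.2% of all genes did), with a median of -0.42. At an unadjusted p under 0.05, 6 were lower (impg1a, opn1lw2, guca1g, grk7b, pde6c and rs1a), against 0.664% of all genes. Groups did not overlap for 6, all lower (2.32% of all genes). With the replicate block, 23 were lower at that level (2.11% of all genes). All 3 sets had the lower value in the stimulated pool for 25 of the 34 genes (10.6% of all genes did). Of 19 rod genes, 18 had a negative log2 fold change, with a median of -0.34, 1 (saga) was lower at an unadjusted p under 0.05, and 10 were with the block. Members of a list were measured in the same pools and can vary together, so counts of members are not independent observations. In whole larvae, fewer cells of a type and less RNA per cell cannot be told apart.

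The red cone opsin opn1lw2 (ENSDARG00000044861, chromosome 11, 25481046 to 25483206) was at 291, 302 and 195 CPM in A78, A79 and A80, against 381, 330 and 349 CPM in A81, A82 and A83. Every stimulated pool was below every unstimulated pool, and the log2 fold change was -0.43 (SE 0.14, edgeR adjusted p = 1). The ultraviolet cone opsin opn1sw1 was at 1323, 1084 and 615 CPM with poly I:C and 1639, 1155 and 1263 CPM without it. Its groups overlapped because A78 was above A82 and A83, but each stimulated pool was below the pool of its own set.

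In the cone signalling cascade, gnat2 and pde6c were lower in the stimulated pool of each set, while the channel subunits cnga3a and cngb3.2 were higher in that of set 2, by 0.16 and 0.22 on the log2(CPM + 0.5) scale. The cone transducin subunit gnat2, which couples opsin to the phosphodiesterase, was at 330, 279 and 145 CPM in stimulated pools and 432, 314 and 351 CPM in unstimulated pools. The catalytic phosphodiesterase subunit pde6c was at 147, 119 and 79.9 CPM with poly I:C, against 177, 140 and 188 CPM without it. In both genes A80 was lowest and A78 overlapped with A82.

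Of the genes that shut the light response off, grk7b and guca1g were lower in the stimulated pool of each set. The cone arrestin arr3a was not, with a pairwise difference of 0.01 in set 1. The opsin kinase grk7b was at 2.19, 2.37 and 1.84 CPM with poly I:C and 3.41, 3.48 and 2.96 CPM without it, with no overlap and nearly the same difference in each set (-0.54, -0.47 and -0.57 on the log2(CPM + 0.5) scale). The calcium sensor guca1g, an activator of guanylate cyclase, was at 1.82, 1.35 and 1.66 CPM in stimulated pools and 2.39, 2.16 and 5.58 CPM in unstimulated pools.

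The inhibitory phosphodiesterase subunit pde6ha and the recoverin rcvrn3 also varied strongly between sets. For pde6ha the levels were 27.7, 11.2 and 6.66 CPM with poly I:C, against 41.2, 19.4 and 15 CPM without it. For rcvrn3 they were 256, 222 and 130 CPM with poly I:C, against 343, 288 and 233 CPM without it. In DESeq2 with the replicate block these were the 2 photoreceptor genes called, pde6ha with an adjusted p of 0.000592 and rcvrn3 with an adjusted p of 0.000874.

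Among rod genes, the arrestin saga was at 22.1, 24.8 and 18.8 CPM with poly I:C, against 25.3, 28.8 and 30.2 CPM without it, with no overlap. The rod pigment rho was at 699, 532 and 382 CPM in stimulated pools and 841, 583 and 731 CPM in unstimulated pools, and its groups overlapped through A78 and A82. Impg1a, a proteoglycan of the matrix around photoreceptors, was at 9.61, 9.45 and 7.26 CPM with poly I:C, against 13.5, 10.3 and 15 CPM without it, with no overlap.

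**Figure D3:**
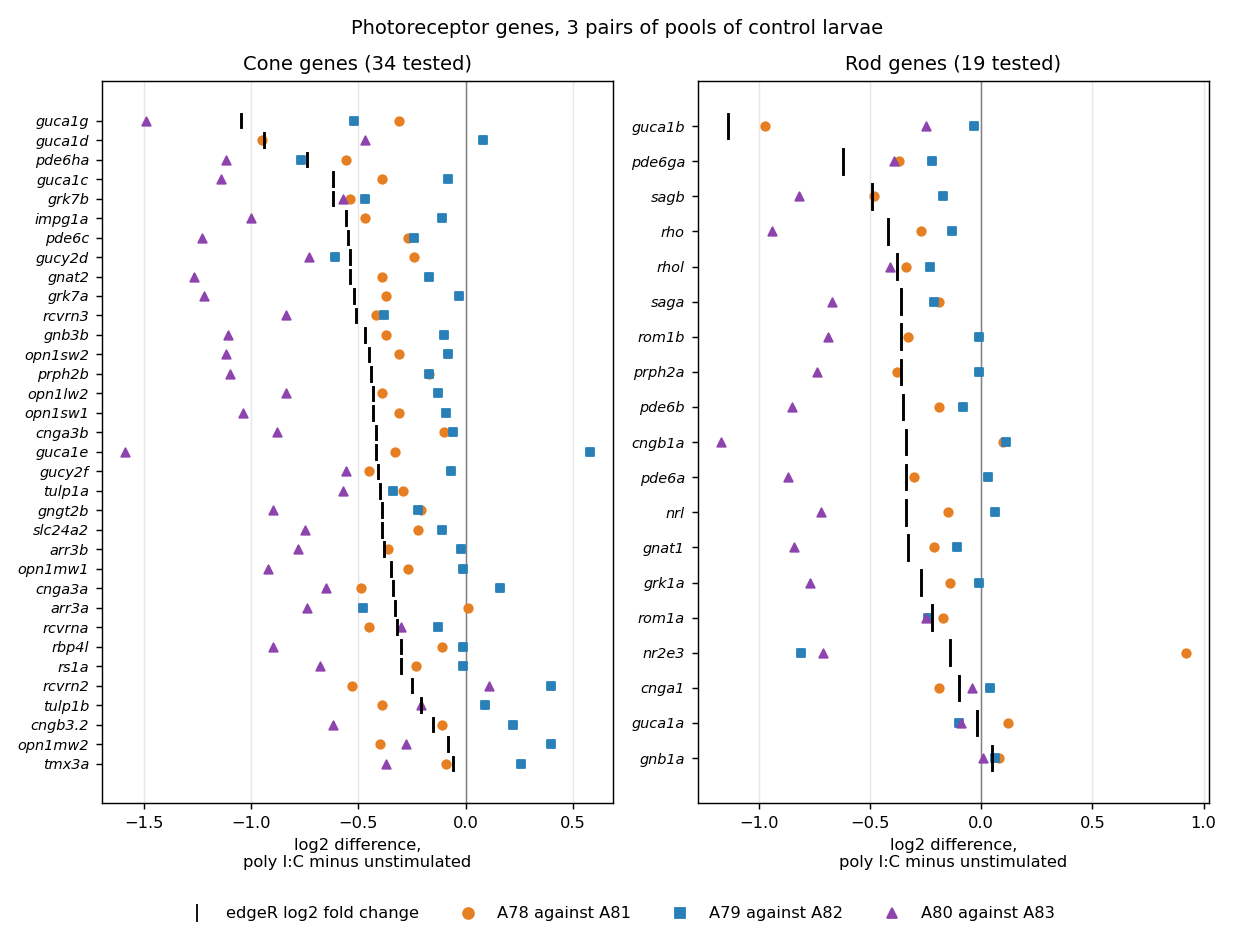
Log2 difference with poly I:C for each of 34 cone genes (left) and 19 rod genes (right): coloured points give the 3 pairs of pools on the log2(CPM + 0.5) scale and black ticks the edgeR log2 fold change. Most points lie left of 0, set 3 (A80 against A83) lies farthest left with cone and rod medians of -0.84 and -0.71, and set 2 (A79 against A82) lies nearest to 0 with medians of -0.09 and -0.08.

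The size of the photoreceptor difference depended on the set. The median pairwise difference of the cone genes was -0.34 in set 1, -0.09 in set 2 and -0.84 in set 3, and the summed level of the list was 4595, 3791 and 2298 CPM in stimulated pools against 5703, 4136 and 4520 CPM in unstimulated pools. Without A80 the cone median was -0.20 with 2 genes lower at an unadjusted p under 0.05, without A81 it was -0.28 with 3, without set 3 it was -0.24 with 3, without A78 it was -0.63 with 17, and without A83 it was -0.44 with 2. The rod median was -0.13 without A80, -0.16 without A81 and -0.17 without set 3. Other eye genes were nearer to 0. Transcription factors of photoreceptor fate had a median of -0.21 (15 of 16 negative), visual cycle and pigment epithelium genes -0.11 (15 of 21 negative) and lens genes -0.12 (23 of 28 negative). In ifih1mut larvae the 53 rod and cone genes had a median of -0.26 with poly I:C, 47 of them negative and 0 called. Only 0.00754% of all genes were called lower there and 0.683% higher. The test of the difference between the genotypes also called 0 of the 53, against 0.155% of all genes. Shares this small mean that the absence of calls does not show equal effects in the 2 genotypes.

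Complement and acute phase proteins, made mainly by the liver, were the list with the highest median. Of 32 complement and acute phase genes tested, 22 had a positive log2 fold change, with a median of 0.16. The 10 negative ones included the acute phase genes saa (-0.64), hamp (-0.40), crp2 (-0.31) and crp (-0.19). At an unadjusted p under 0.05, 2 were higher (c9 and hp), against 0.721% of all genes, and 0 lower. With the replicate block 6 were higher and 1 lower (1.86% and 2.11% of all genes). The lower one was hpx, with a log2 fold change of -0.89 and the lower value in the stimulated pool of each set. In ifih1mut larvae the list's median with poly I:C was -0.10, with 13 genes positive and 19 negative. Without set 3 no member was at that level, without set 1 there was 1 in each direction, and without A79 and without set 2 there were 6 and 7 higher. The terminal complement component c9, which forms the membrane pore, was at 198, 181 and 198 CPM with poly I:C, against 138, 161 and 156 CPM without it, with no overlap. The haemoglobin-binding protein hp was at 21.5, 34.8 and 35.3 CPM in stimulated pools and 18.1, 22.5 and 23.1 CPM in unstimulated pools, higher with poly I:C in each set.

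The central complement component c3a.1 was at 581, 364 and 366 CPM with poly I:C and 398, 309 and 278 CPM without it, and c5 was at 66.7, 65.0 and 71.8 CPM against 54.6, 60.6 and 54.6 CPM. Each stimulated pool exceeded the unstimulated pool of its set for both genes, and only c5 had groups that did not overlap. The alternative-pathway protease cfb was at 32.0, 12.1 and 19.9 CPM with poly I:C, against 15.4, 13.9 and 11.12 CPM without it. Copies of complement component 3 lie beside each other in the genome, and reads may be shared between them. The copies c3b.1 and c3b.2, which were not in the list, had log2 fold changes of -0.23 and -0.13. Both were lower in the stimulated pool of each set.

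Other liver genes were close to 0 as a list. Of 27 tested, 15 had a positive log2 fold change, with a median of 0.04. At an unadjusted p under 0.05, 3 were higher, against 0.721% of all genes. These were the lipoprotein apobb.2, the protease inhibitor precursor ambp and the yolk protein vtg1. With the block 3 were higher and 2 lower at that level (1.86% and 2.11% of all genes). The lower ones were ttr and cyp7a1, with log2 fold changes of -0.55 and -0.32 and groups that did not overlap. In all 3 sets 8 members had the lower value in the stimulated pool, and 3 the higher (10.6% and 10.1% of all genes). In ifih1mut larvae 23 of the 27 had a negative log2 fold change. The level of ambp was 58.4, 63.2 and 60.8 CPM with poly I:C and 56.6, 48.7 and 49.0 CPM without it, without overlap.

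Digestive genes had lower values in most members. Of 18 exocrine pancreas enzymes, 16 had a negative log2 fold change, with a median of -0.28, and of 18 intestinal genes 14 did, with a median of -0.25. At an unadjusted p under 0.05, 1 pancreas gene was lower, the protease c6ast4 (0.664% of all genes were). Its level was 4.30, 3.60 and 2.56 CPM with poly I:C and 4.18, 8.45 and 6.11 CPM without it. With the block, 4 pancreas and 6 intestinal genes were lower at that level (2.11% of all genes). The bile acid binding protein fabp6 was at 6.12, 6.72 and 3.13 CPM in stimulated pools and 6.85, 19.7 and 6.90 CPM in unstimulated pools, without overlap. Without A82 the medians were -0.03 for the pancreas and -0.02 for the intestine. Without set 2, which leaves out both A79 and A82, they were -0.20 and -0.06.

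Lists of other tissues lay close to 0. Cartilage and bone genes had a median of 0.12 (22 of 26 positive), epidermis and ionocyte genes 0.07 (24 of 33 positive) and erythroid genes 0.14 (15 of 17 positive), and in each of these lists set 2 had a median below 0. Circadian clock genes had a median of -0.09 (26 of 32 negative) and targets of the glucocorticoid receptor -0.07 (13 of 16 negative). Of these 5 lists, only the erythroid one held a member at an unadjusted p under 0.05 in edgeR, hbbe3.

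**Figure D4:**
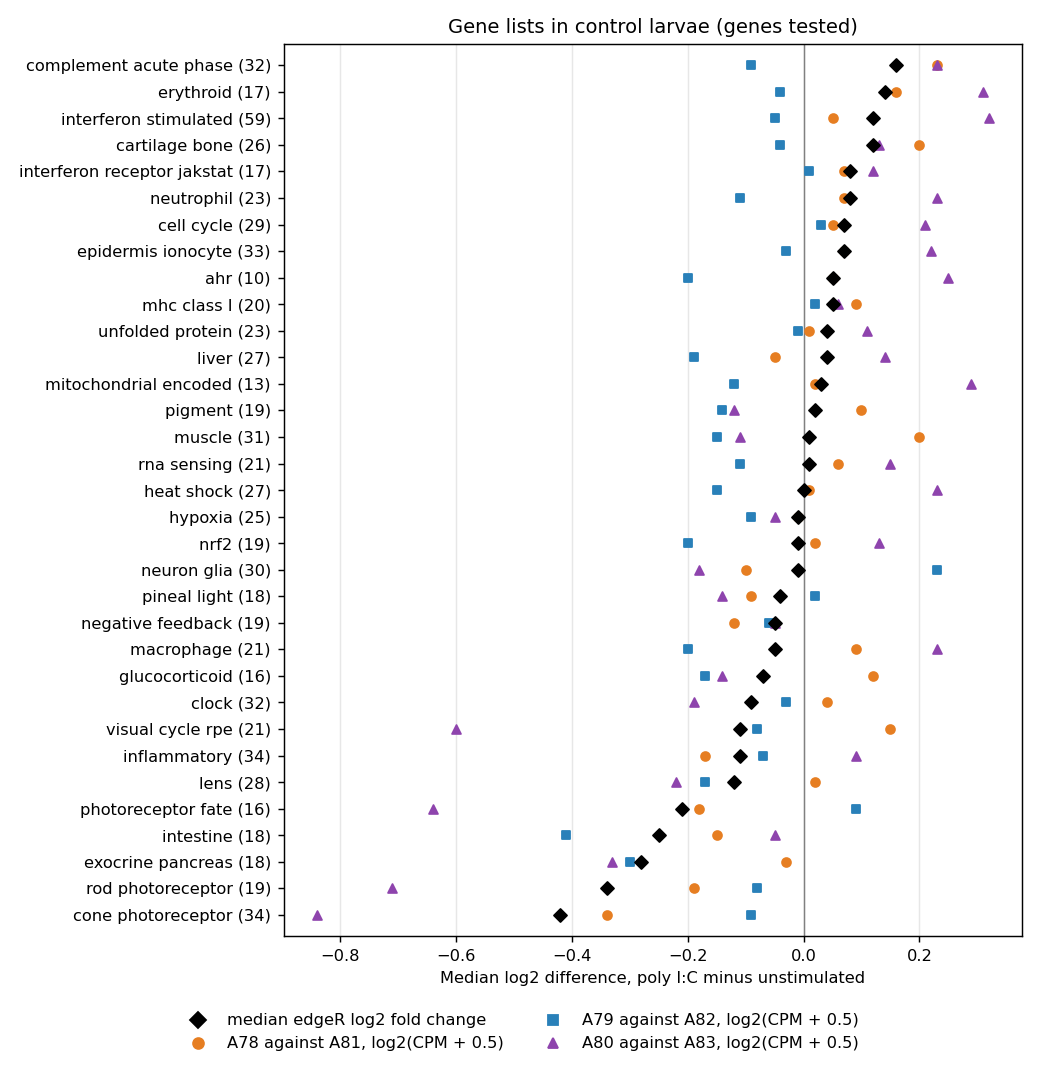
Median log2 difference with poly I:C for 33 gene lists (number of genes tested in brackets), as the median edgeR log2 fold change (diamonds) and as the median of each pair of pools on the log2(CPM + 0.5) scale. The lists run from complement and acute phase genes at 0.16 (top) to cone genes at -0.42 (bottom), and for most lists the pairs differ by more than the distance of the median from 0.

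By the rule for named genes, the 12 genes with higher values ranked first by edgeR included bms1, cxcl12b and c9. The GTPase bms1, needed to build the small ribosomal subunit (ENSDARG00000054154, chromosome 12, 29240124 to 29270362), was at 16.0, 14.7 and 16.5 CPM with poly I:C and 8.44, 6.61 and 7.21 CPM without it. The groups did not overlap, with a log2 fold change of 1.08 (SE 0.28, edgeR adjusted p = 1). Another ribosome assembly factor, utp18, was at 2.50, 1.92 and 2.71 CPM in stimulated pools, against 1.75, 1.57 and 1.35 CPM in unstimulated pools.

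Rrbp1b, which anchors ribosomes to the endoplasmic reticulum, was at 59.7, 58.0 and 57.0 CPM with poly I:C, against 42.9, 50.5 and 40.1 CPM without it. The glycoprotein folding sensor uggt2 was at 34, 29.2 and 35.2 CPM with poly I:C, against 22.5, 27.2 and 19.1 CPM without it. Both are genes of the endoplasmic reticulum, but the list of unfolded protein response genes had a median of 0.04, with 0 of 23 at an unadjusted p under 0.05 in edgeR and 1 with the block.

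The other genes with higher values were GTPBP8, the cell death regulator badb, the arginine transporter slc7a2, the guanine nucleotide exchange factor fgd5a, sarcosine dehydrogenase (sardh) and the calcium buffer pvalb7. Their log2 fold changes ran from 0.47 for fgd5a to 0.90 for pvalb7. All 12 had higher values in the stimulated pool of each set, which follows from the rule, since it required groups that did not overlap.

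The 10 genes with lower values ranked first held 3 photoreceptor genes (saga, impg1a and opn1lw2). Ornithine aminotransferase, oat, was at 24.4, 23.1 and 26.4 CPM with poly I:C and 31.3, 40.4 and 33.7 CPM without it (log2 fold change -0.51, SE 0.12, edgeR adjusted p = 1). The peroxisomal fatty acid transporter abcd2 was at 0.742, 0.450 and 0.422 CPM with poly I:C and 1.22, 1.2 and 1.54 CPM without it. The phosphatidate phosphatase lpin1 was at 16.9, 15.8 and 15.5 CPM in stimulated pools and 21.6, 22.8 and 25.7 CPM in unstimulated pools.

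Among the others, the mitochondrial creatine kinase ckmt2a was at 14.8, 16.0 and 11.05 CPM with poly I:C, against 17.6, 21.6 and 29.0 CPM without it. Dglucy, the taurine transporter slc6a6b and the homeobox gene gbx1 had log2 fold changes of -0.43, -0.34 and -0.42. None of the 10 is in the list of interferon-stimulated genes, which held only 59 of the 26508 genes tested. In ifih1mut larvae none was called, where 0.683% of all genes were called higher and 0.00754% lower. With shares this small, neither absence says much about the 10.

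The authors' deposited table of this comparison held 7 genes at an adjusted p under 0.05, 6 with a positive log2 fold change and 1 with a negative one. It gave bms1 a log2 fold change of 1.08 with an adjusted p of 1.86e-06, the smallest of the 7 in the authors' deposited table. By log2 fold change, the other named genes in the authors' deposited table were a ribosomal RNA gene, CT583728.22 (2.21), the vesicle tethering factor subunit trappc2l (1.6), the pantothenate kinase family gene pank4 (1.59) and the clone-named gene BX537263.3 (-1.05), beside 2 assembled genes without a name. Scaled to library size, BX537263.3 was at 12.2, 12.1 and 14.1 CPM with poly I:C, against 20.8, 29.4 and 29.6 CPM without it. The level of pank4 was 8.01, 17.1 and 13.7 CPM, against 4.60, 5.71 and 2.52 CPM. No interferon-stimulated gene was among the 7 of the authors' deposited table. With only 7 of its 31617 genes at that level, this absence says little about the list.

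DESeq2 with the replicate block called 24 genes, 14 higher and 10 lower, of which 4 were also among the authors' 7. The lowest adjusted p belonged to dao.1, a D-amino acid oxidase, at 28.9, 7.50 and 15.6 CPM with poly I:C and 16.7, 2.98 and 5.48 CPM without it (DESeq2 adjusted p = 8.39e-07). Its level varied more between sets than with poly I:C, and the stimulated pool was higher in each set. Genes called lower included, besides oat, rcvrn3 and pde6ha, the immediate early factor egr4, the carbonic anhydrase ca4b, the purine nucleoside phosphorylase pnp4b and the protocadherin CDHR2, a protein of the intestinal brush border in mammals. The level of egr4 was 2.78, 2.58 and 5.63 CPM with poly I:C and 10.7, 4.72 and 7.56 CPM without it.

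Several of these 24 genes are neighbours on chromosome 22, which was noticed after their values were seen. On chromosome 22 and its alternate contigs lay 10 of the 24. At an unadjusted p under 0.05 with the replicate block, chromosome 22 held 69 of 823 genes tested (8.38%), against 2.40 to 4.90% on the other 24 chromosomes and 3.98% over all genes. Without the block the share was 3.04%, against 0.589 to 1.94% on the other chromosomes. Genes on alternate contigs, second versions of parts of the chromosomes, were at 7.15% with the block, and those on the contigs of chromosome 22 at 25.0% (37 of 148). Without A80 the share on chromosome 22, without the block, was 1.09%, against 0.978% over all genes.

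**Figure D5:**
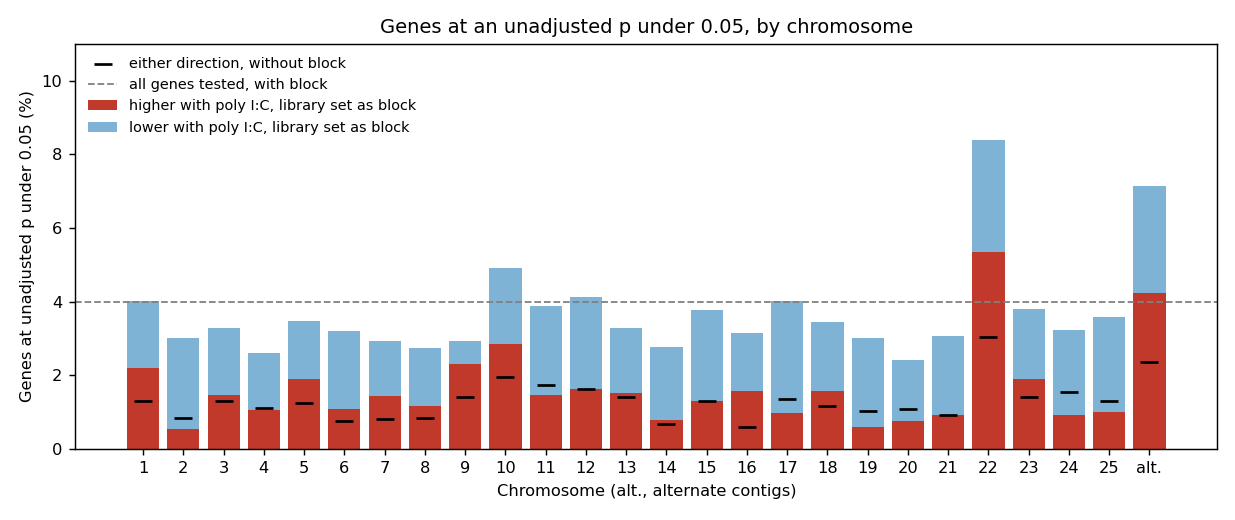
Share of genes tested (%) at an unadjusted p under 0.05 on each chromosome and on the alternate contigs, with the library set as a block (bars: red, higher with poly I:C; blue, lower) and without it (black dashes); the dashed line is the share over all genes with the block, 3.98%. Chromosome 22 stands highest at 8.38%, followed by the alternate contigs at 7.15%.

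Within chromosome 22 the genes clustered in the stretch from 26 to 27 Mb, where 11 of 22 genes tested were at an unadjusted p under 0.05 with the block, 9 of them higher. That was the highest share among 738 windows of 1 Mb with at least 15 genes tested, and the next window had 9 of 23. From 26703026 to 26945493 in the deposited coordinates lie, in this order, the histone acetyltransferase crebbpa, the nuclease scaffold slx4, the clone-named gene si:dkey-44g23.5, the phosphodiesterase gde1, the haem oxygenase hmox2a and the chemokine cxcl12b. All 6 had higher values in the stimulated pool of each set.

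The chemokine cxcl12b (ENSDARG00000055100), which guides migrating cells, was at 38.2, 39.09 and 50.1 CPM with poly I:C, against 27.8, 26.6 and 27.9 CPM without it. The groups did not overlap, and the unstimulated pools lay close together (log2 fold change 0.63, SE 0.21, edgeR adjusted p = 1). The level of gde1 was 7.85, 8.10 and 9.88 CPM in stimulated pools, against 4.50, 5.03 and 6.02 CPM in unstimulated pools. That of slx4 was 6.34, 5.16 and 12.2 CPM, against 3.96, 2.45 and 4.41 CPM. The intervals of si:dkey-44g23.5 and gde1 each overlap that of slx4, so that reads may be shared with slx4.

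The haem oxygenase hmox2a, which breaks down haem, was at 12.9, 8.31 and 14.5 CPM with poly I:C and 8.51, 3.36 and 6.65 CPM without it, and crebbpa was at 23.8, 20.8 and 30.7 CPM against 18.9, 14.2 and 23.53 CPM. Both overlapped between groups. Earlier in the stretch, the clone-named gene zgc:92480 was at 21.0, 15 and 31.4 CPM in stimulated pools, against 9.53, 0.0573 and 3.84 CPM in unstimulated pools, so that 1 unstimulated pool had almost none. Pools of larvae can differ in the haplotypes they carry, and reads of 1 haplotype can be counted on the chromosome or on its alternate contigs, where the share was also high; the part of this in these values was not tested. In ifih1mut larvae the 22 genes of the stretch had a median log2 fold change of 0.10 with poly I:C and 0 were called (0.683% of all genes were called higher and 0.00754% lower). Without the block 5 of the 22 genes were at an unadjusted p under 0.05 in control larvae, 3 without A82 and 1 without A80.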

How the data were processed

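Per the file headers, the authors deposited 3 comparison tables with raw read counts per gene and library, a log2 fold change, and p-values with adjusted p-values. No source used here gives the aligner, counting program, strand setting or genome build. The 36 columns of normalized values were not used. The tables were joined into 32349 genes, and 6372 missing counts were set to 0. Column names hold a group and a number such as A78, not the replicate number of the titles.

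Genes were filtered with filterByExpr (minimum count 10, total 15), scaled by TMM and fitted in edgeR 4.0.16 (R 4.3.3) over all 12 libraries with a coefficient for each group; its quasi-likelihood test was adjusted by Benjamini-Hochberg (threshold 0.05). Pairwise differences are log2(CPM + 0.5). Lists were described, not tested; of 33 lists, 0 had a called member. DESeq2 1.42.0, RLE size factors, other filters, fits of 6 libraries, thinning and leaving out libraries were alternatives. The fits were also run on simulated counts drawn without library sets, which cannot show how they handle the sets seen here.

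Pairing came from the order of library numbers: after group means were removed, 18 same-position pairs of libraries correlated at 0.287 to 0.807 across 21213 genes (control larvae 0.309 to 0.716), and 36 other pairs reached at most 0.163.

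Named were the 12 higher and 10 lower genes with the smallest p, an average log2 CPM of at least 0, no overlap and a gene symbol; calls of the authors' table and of DESeq2 with the block; up to 4 members per list; and 16 fixed genes. Of the fixed genes, Toll-like receptor 3 was not analysed, and ifnphi3 and tnfa were too low to be tested. Members and lists were chosen with earlier results of these data known.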

Additional observations from a re-analysis of the deposited data

Results flagged for a closer look

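The poly I:C effect differed between control and ifih1mut larvae in the test of the difference itself (edgeR, adjusted p under 0.05) for 6 of the genes whose levels are given above. Each had the smaller effect in control larvae. On the log2 scale, control minus ifih1mut, the differences were -6.51 for dhx58, -6.47 for mxa, -6.18 for isg15, -5.24 for helz2, -4.97 for rnf213b and -3.29 for irf7. In ifih1mut larvae poly I:C gave these genes log2 fold changes between 3.25 and 7.98. No library is shared by the 2 effects that the test compares.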

How the results depend on the processing

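For poly I:C in control larvae 0 genes were called under every alternative run except DESeq2 with the replicate block, which called 24 against 0. The 41 genes of the difference between the effects numbered 136 in DESeq2, 79 with the replicate block and 183 with the block in DESeq2, and 0 to 60 when single libraries or sets were left out. The median of the interferon-stimulated genes, 0.12, ranged from -0.08 to 0.34 when libraries or sets were left out, and that of the rod and cone genes, -0.38, from -0.60 to -0.20. With RLE size factors these medians were 0.12 and -0.38. Over 85 named genes and 1516 alternative values, 1478 kept direction and call, 15 were called only in DESeq2 with the block, and 23 in 10 genes had the opposite sign. With libraries or sets left out, the log2 fold change ranged from -0.67 to 2.21 for rsad2, -0.58 to 2.08 for mxe, -0.26 to 1.19 for mxa and -0.31 to 0.58 for irf3. It ranged from -1.67 to 0.79 for il1b, -0.49 to 0.48 for cxcl8a, -0.15 to 0.09 for irf7, -0.02 to 0.21 for mavs, -0.06 to 0.14 for ticam1 and -0.07 to 0.05 for adar. Thinned to 31876869 counts per library, irf7 was at 0.03. The cause of these shifts was not tested. The replicate block changed no other call in edgeR. With 3 pools a group, low interferon-stimulated genes rest on few counts, which limits what could be detected.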

Other observations

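The genes dusp5, npas4a and fosb were chosen after their values were seen and are given without a statement on a group. The phosphatase dusp5, which inactivates MAP kinases, had the smallest unadjusted p of all genes tested (0.000427 in edgeR, adjusted p = 1), at 0.371, 0.600 and 0.512 CPM with poly I:C and 1.6, 1.38 and 1.1 CPM without it. The groups did not overlap. The transcription factor npas4a was at 1.05, 1.77 and 4.55 CPM with poly I:C and 8.67, 2.18 and 8.60 CPM without it, and fosb was at 0.525, 0.300 and 2.17 CPM against 7.12, 0.745 and 1.99 CPM. For npas4a the stimulated pool was the lower one in each set, and for fosb in sets 1 and 2 but not in set 3.

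The embryonic globin hbbe3 had the highest positive log2 fold change among the genes named (4.02, SE 1.71, edgeR adjusted p = 1), at 1.02, 0.0300 and 8.10 CPM with poly I:C and 0.0955, 0.172 and 0.346 CPM without it. Its high pool was A80, and in ifih1mut larvae it was high in A74, of the same set, at 11 CPM. Of 29 cell cycle genes tested, 27 had a positive log2 fold change, but the median was only 0.07 and 0 were at an unadjusted p under 0.05 in edgeR. Exocrine pancreas and intestine genes also had negative medians with poly I:C in ifih1mut larvae, -0.67 and -0.40, with 0 called (0.00754% of all genes were called lower there).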
